A study of Mus musculus with 2 samples.

Results

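The levels described here are those of 10 RNA-binding proteins that act on alternative splicing in neurons and glia, namely Rbfox1, Rbfox2, Rbfox3, Nova1, Nova2, Celf2, Celf4, Srrm4, Qk and Mbnl2. They were chosen by name as a fixed list, and all 10 were found among the 25778 genes of the count table. The study asked whether loss of Ptbp1, an RNA-binding protein that represses neuronal exons, changes the identity of retinal cells. One retina library came from a Ptbp1-Ctrl mouse, which carried the Chx10-Cre transgene and, as the study's methods give it, wild-type Ptbp1. The other came from a Ptbp1-KO mouse, Chx10-Cre;Ptbp1lox/lox, in which loxP sites flank the promoter and first exon of Ptbp1. Both mice were 30 days old (P30), and both carried Chx10-Cre, which is active in retinal progenitors, so that neurons and Müller glia (MG) alike descend from cells that expressed Cre. With 1 mouse and 1 library per genotype, no difference has a replicate check, genotype and library cannot be told apart, and no test or p-value is given.

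Rbfox, Nova, Celf, Mbnl and Qk proteins bind short motifs in pre-mRNA and promote or repress nearby exons depending on where they bind. Rbfox3 is the neuronal nuclear antigen NeuN, and Srrm4 (nSR100) promotes the inclusion of neural microexons, very short exons found mostly in genes of synapses and the cytoskeleton. Quaking, the product of Qk, is known for its role in glia, and photoreceptors use a set of microexons and exons of their own. The libraries were made from the 3' end of transcripts, so the values below are gene levels and carry no reading of isoforms, splicing or protein.

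The table held 16421 Ptbp1-Ctrl cells and 14522 Ptbp1-KO cells, with 32758836 and 35328593 unique molecular identifiers (UMIs, counted molecules), and a median of 1442 and 1740 UMIs per cell. The deposited names of 7 cell types were used, namely the photoreceptors (rods and cones), the amacrine (AC), bipolar (BC) and horizontal cells (HC) of the inner retina, the retinal ganglion cells (RGC) and the MG. Levels are counts per 1000000 UMIs (CPM), computed from the UMIs summed over the cells of a type and library, with exact 95% Poisson intervals that cover counting error only. Ptbp1, the targeted gene, stood at 49.8 CPM in MG of Ptbp1-Ctrl and 1.18 CPM in MG of Ptbp1-KO, and at 19.6 and 0.276 CPM in rods. Marker lists were highest in the type they name in both libraries, except Tfap2b of the AC list, which was highest in HC. Rod markers were found at a median of 13.8% to 17.7% of the rod level in BC, AC and MG and at 25.0% and 25.9% in cones, but at 60.7% and 75.8% in cells named RGC. The RGC (124 and 97 cells) and HC (17 and 7 cells) were few, and their values have wide intervals. The intervals do not cover RNA of other types, which limits the RGC values further. Of the cell barcodes, 63 occurred in both libraries, which is 0.384% of those of Ptbp1-Ctrl.

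**Figure D1:**
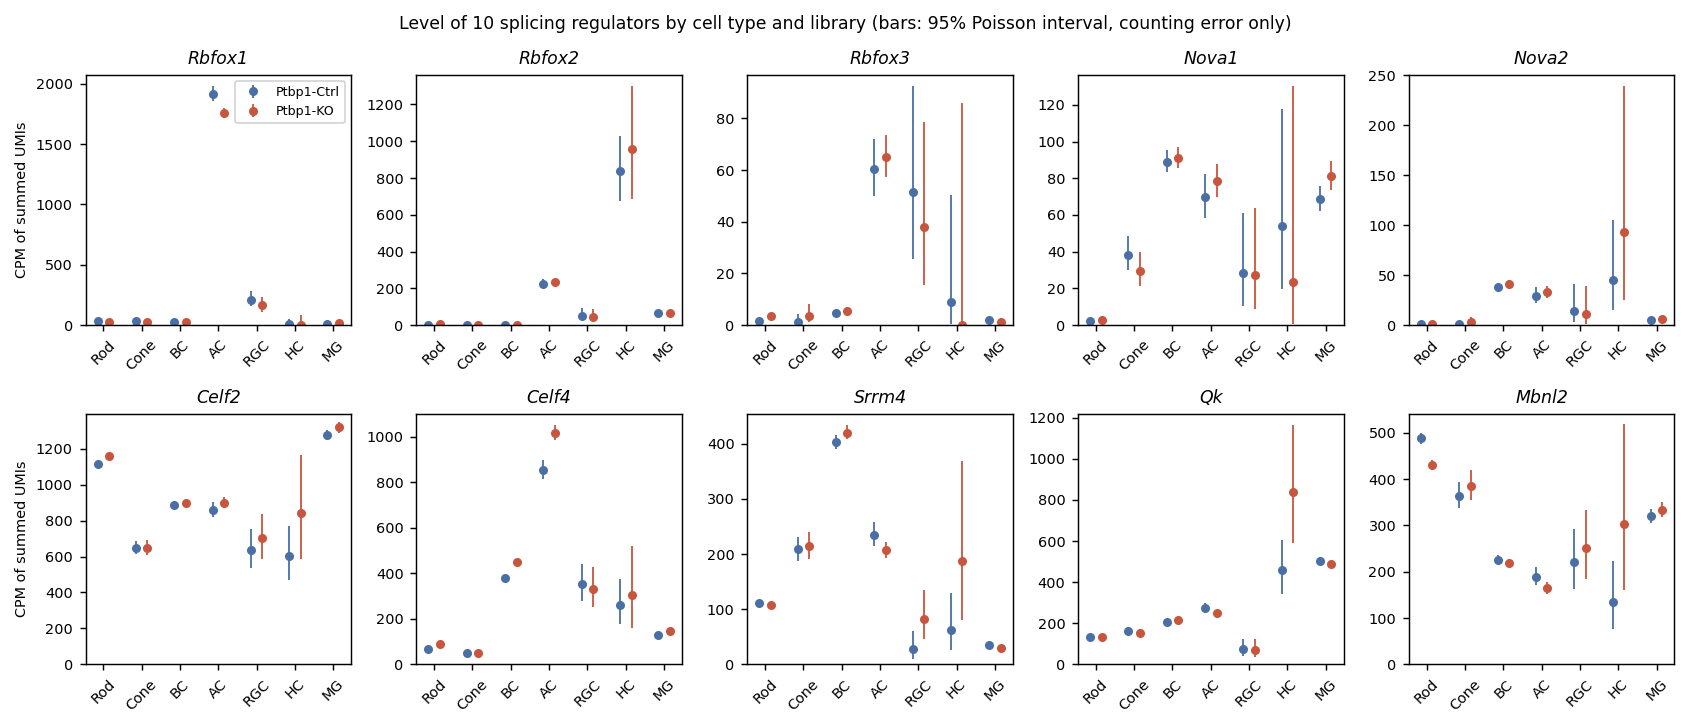
Level of each member by cell type (horizontal axis) as CPM of summed UMIs (vertical axis, starting at 0, its own scale in each panel) in the Ptbp1-Ctrl and Ptbp1-KO libraries. Points are 1 library each and bars are 95% Poisson intervals. Rbfox1 reached 1916 and 1758 CPM in AC and at most 211 CPM elsewhere, Rbfox2 was highest in HC, Srrm4 in BC, and Mbnl2 in rods.

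Rbfox1 was a gene of amacrine cells in these libraries. In AC it stood at 1916 CPM (1855 to 1979) in Ptbp1-Ctrl and 1758 CPM (1716 to 1800) in Ptbp1-KO. RGC followed with 211 and 163 CPM, and rods held 30.4 and 27.8 CPM, cones 32.1 and 26.0 CPM, BC 21.9 and 23.3 CPM, and MG 11.7 and 17.5 CPM. AC, which were 676 of the 16421 cells and 945 of the 14522 cells, held 82.8% and 89.5% of all Rbfox1 UMIs. With each cell thinned to 1000 UMIs, 66.4% (Clopper-Pearson interval 62.5% to 70.1%) of 625 AC of Ptbp1-Ctrl and 58.3% (55.0% to 61.6%) of 892 AC of Ptbp1-KO had at least 1 Rbfox1 UMI, against 2.20% of 5903 and 2.35% of 6175 rods. Unthinned, these were 72.2% and 68.7% of AC and 3.0% and 3.58% of rods, at median depths of 2600.5 and 3928 UMIs in AC and 1088 and 1288 UMIs in rods. In rods the Rbfox1 level was 1.58% of that in AC in both libraries, while the AC marker genes stood in rods at a median of 1.13% and 1.29% of their own AC level. How much of the low Rbfox1 signal outside AC was RNA of AC was not tested.

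Rbfox2 had a different order, with HC at the top. HC held 839.5 CPM (678 to 1029) from 93 UMIs in Ptbp1-Ctrl and 957 CPM (687 to 1298) from 41 UMIs in Ptbp1-KO, and AC held 226 and 233 CPM. MG came next with 63.7 and 64.3 CPM, not separable from RGC at 51.6 and 43.6 CPM. Rods (2.76 and 4.07 CPM), BC (2.25 CPM in both) and cones (1.15 and 2.81 CPM) held almost none, and among them rods stood above BC in Ptbp1-KO (log2 ratio 0.86, 0.14 to 1.62) while cones could not be told from either beyond counting error. In both libraries Rbfox2 was higher in MG than in BC and cones, and lower in MG than in AC and HC, beyond counting error.

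Rbfox3 was read from few UMIs, 210 and 373 over all cells. AC held 60.3 CPM (49.9 to 72.2) and 65.1 CPM (57.3 to 73.6), and RGC held 51.6 and 38.1 CPM from 11 and 7 UMIs. These types did not differ beyond counting error in either library. BC held 4.70 and 5.37 CPM, rods 1.61 and 3.38 CPM, cones 1.15 and 3.51 CPM, and MG 1.86 and 1.18 CPM. The level of the transcript for NeuN was thus highest in AC and RGC, although most of their cells had no Rbfox3 UMI at this depth either: 13.02% and 18.5% of AC and 6.45% and 6.19% of RGC had at least 1, against 0.199% and 0.495% of rods.

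Nova1 and Nova2, paralogs expressed in the nervous system, were highest or close to highest in BC, and both were near the bottom in rods. Nova1 stood at 89.1 CPM (83.3 to 95.2) and 91.1 CPM (85.4 to 97.2) in BC, 69.5 and 78.5 CPM in AC, and 68.7 and 81.4 CPM in MG. Cones held 38.4 and 29.5 CPM, and rods 2.22 and 2.97 CPM. Nova1 did not differ beyond counting error between MG and AC, and cones stood above rods. Nova2 stood at 38.1 CPM (34.3 to 42.2) and 41.3 CPM (37.5 to 45.4) in BC and at 29.1 and 32.9 CPM in AC. MG held 5.08 and 6.29 CPM of Nova2, rods 1.30 and 1.38 CPM, and cones 1.15 and 3.51 CPM. The paralogs thus parted in MG and cones, where the Nova1 level was above that of Nova2. In cones the Nova1 level depends on RNA of other cells. After subtraction of an estimated background of such RNA, the log2 ratio of Ptbp1-KO over Ptbp1-Ctrl there was -1.82 in place of -0.38. The Nova1 level in rods was 2.50% and 3.26% of that in BC, and BC markers stood in rods at a median of 2.59% and 2.68% of their BC level, which is close to the Nova1 share.

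Celf2 was the most evenly spread member. It stood at 1275 and 1318 CPM in MG, 1115 and 1159 CPM in rods, 888 and 898 CPM in BC, 861 and 899.6 CPM in AC, and 649 and 647 CPM in cones. Its highest and lowest levels among these 5 types were about 2-fold apart, with MG above rods and rods above BC, AC and cones beyond counting error. Celf4, a family member known for its role in excitatory neurons, had a steeper order. AC held 855 CPM (815 to 897) and 1018 CPM (987 to 1051), BC 378 and 448 CPM, RGC 352 and 332 CPM, and HC 262 and 303 CPM. MG, at 130.2 and 148 CPM, held more Celf4 than rods at 67.5 and 88.8 CPM and cones at 49.3 and 50.5 CPM, so that for Celf4 the photoreceptors stood below the glia.

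Srrm4 was highest in BC and was found in rods and cones too. BC held 403 CPM (390.3 to 416) and 420.2 CPM (408 to 433), AC 235 and 207 CPM, cones 209 and 215 CPM, and rods 111 and 107 CPM. AC and cones did not differ beyond counting error, and rods held about 25.5% to 27.5% of the BC level, where the median for BC markers in rods was 2.59% and 2.68%. The part of RNA from BC in the rod value was not tested. MG held 35.4 CPM (30.8 to 40.5) and 29.3 CPM (24.8 to 34.4). Part of this came from 1 deposited MG cluster of 89 and 54 cells, number 22, where Srrm4 stood at 183 and 214 CPM and BC markers at 3897 and 5077 CPM. In the main MG cluster of 1386 and 994 cells, Srrm4 stood at 19.2 and 14.8 CPM and BC markers at 621 and 708 CPM. With that main cluster as the only MG, the log2 ratio of other neurons to MG was 4.17 and 4.54 in place of 3.29 and 3.56, and that of rods to MG 2.53 and 2.85 in place of 1.65 and 1.87.

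Qk went the other way from Srrm4. MG held 504 CPM (486 to 523) and 487 CPM (468 to 507), and HC 460.4 CPM (343 to 605) and 840.1 CPM (588 to 1163). AC held 274 and 250.4 CPM, BC 204 and 216 CPM, cones 163 and 151 CPM, rods 133 and 135 CPM, and RGC 75.1 and 70.8 CPM. MG were above AC, BC, cones and rods beyond counting error in both libraries, whereas HC did not differ from MG in Ptbp1-Ctrl and were higher in Ptbp1-KO, from 36 UMIs. Mbnl2 was the 1 member whose own level was highest in rods, at 488 CPM (476 to 499.9) and 430.1 CPM (419 to 441), followed by cones at 364 and 386 CPM. MG held 319.8 and 334 CPM, BC 226 and 218 CPM, and AC 189 and 164 CPM, so the photoreceptors and MG stood above BC and AC.

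The types with few cells complete the orders with wide intervals. In HC, Rbfox1 and Rbfox3 each had 1 UMI in Ptbp1-Ctrl (9.03 CPM) and 0 UMIs in Ptbp1-KO, where the interval reaches 86.1 CPM and a floor of 3 UMIs is 70.0 CPM. Nova1 stood at 54.2 and 23.3 CPM in HC and at 28.2 and 27.2 CPM in RGC, and Nova2 at 45.1 and 93.3 CPM and at 14.1 and 10.9 CPM. For Nova2, HC did not differ from BC, nor RGC from AC, beyond counting error in either library. Celf2 stood at 605 and 840.1 CPM in HC and at 638 and 703 CPM in RGC, Srrm4 at 63.2 and 187 CPM and at 28.2 and 81.7 CPM, and Mbnl2 at 135 and 303 CPM and at 221 and 251 CPM. HC were at the top for Rbfox2 in both libraries, and RGC at the bottom for Qk.

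The promoter windows of Qk, Srrm4 and Rbfox3 are shown because Qk was the member lower in other neurons than in MG, Srrm4 the one higher in both rods and other neurons than in MG, and Rbfox3 the one with the fewest UMIs. The windows run from 250 bases before to 50 bases after the RefSeq transcript start on GRCm38.p6, all 3 on the minus strand, read 5' to 3', with each CG pair in capitals. The Qk window is chr17:10319312-10319611, the Srrm4 window chr5:116591768-116592067, and the Rbfox3 window chr11:118760992-118761291.
Qk: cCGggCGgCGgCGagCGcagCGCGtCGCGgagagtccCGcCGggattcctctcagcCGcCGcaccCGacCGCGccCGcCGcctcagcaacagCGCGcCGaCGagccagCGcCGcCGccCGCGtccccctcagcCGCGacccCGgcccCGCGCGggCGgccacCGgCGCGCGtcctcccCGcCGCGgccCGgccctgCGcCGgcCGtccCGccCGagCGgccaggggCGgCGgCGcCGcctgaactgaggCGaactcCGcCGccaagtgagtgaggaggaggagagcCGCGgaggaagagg
Srrm4: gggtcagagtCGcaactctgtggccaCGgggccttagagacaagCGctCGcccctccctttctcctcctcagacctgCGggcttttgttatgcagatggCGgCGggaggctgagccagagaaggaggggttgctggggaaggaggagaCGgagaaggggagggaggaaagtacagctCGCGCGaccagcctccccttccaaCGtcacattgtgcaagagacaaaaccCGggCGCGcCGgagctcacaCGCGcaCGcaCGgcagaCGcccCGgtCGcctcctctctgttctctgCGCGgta
Rbfox3: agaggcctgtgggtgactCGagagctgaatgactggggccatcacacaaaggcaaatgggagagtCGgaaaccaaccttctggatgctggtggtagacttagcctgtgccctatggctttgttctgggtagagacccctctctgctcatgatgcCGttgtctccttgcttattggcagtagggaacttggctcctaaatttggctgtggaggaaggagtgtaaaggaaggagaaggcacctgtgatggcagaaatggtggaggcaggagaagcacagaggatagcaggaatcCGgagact
CG reads the same on both strands and cannot overlap itself. It occurred 57 times in the Qk window, 25 times in the Srrm4 window and 4 times in the Rbfox3 window, and the share of all 32851 windows with at least as many was 0.152%, 18.4% and 68.6%. The median window held 7. A window was found for 8 of the 10 members, and these counts describe the letters only. In GENCODE M21 on GRCm38, Qk spans chr17:10202601-10319854, Srrm4 chr5:116439275-116591817 and Rbfox3 chr11:118489762-118911597, so the Rbfox3 and Qk windows lie inside the annotated genes. Rbfox1 spans 1526 kb at chr16:5885355-7411526 on the plus strand. The gene Srrm4os, which overlaps exons of Srrm4 on the opposite strand, had 663 and 995 UMIs against 6432 and 7130 for Srrm4, and the strand setting of the counting was not stated.

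To compare neurons with glia, the UMIs of cones, BC, AC, RGC and HC were summed as other neurons and divided by MG, and a member was counted where the ratio was at least 2-fold in the same direction in both libraries. Of the 10 members, 5 were higher in other neurons than in MG, where 18.0% of the 15572 genes with at least 20 UMIs were. Rbfox1 led with a log2 ratio of 4.65 and 4.68, followed by Srrm4 at 3.29 and 3.56, Rbfox3 at 2.79 and 4.10, Nova2 at 2.65 and 2.50, and Celf4 at 1.63 and 1.90. Qk was the 1 member that was lower, at -1.27 (-1.35 to -1.20) and -1.16 (-1.23 to -1.08), where 14.2% of all genes were. The remaining 4 lay within 2-fold: Nova1 at 0.19 and 0.00, Celf2 at -0.59 in both, Mbnl2 at -0.43 and -0.60, and Rbfox2 at -0.63 and -0.05. The median log2 ratio of the 10 members was 0.91 and 0.95, and that of all genes 0.18 and 0.20. Because the sum follows the numbers of cells, Rbfox2 read 1.82 and 1.95 when the 5 types were given equal weight, with HC contributing most, which made it a further member counted as higher (6 in all), and Srrm4 fell to 2.41 and 2.92. Qk read -1.10 and -0.67 and was no longer counted as lower.

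**Figure D2:**
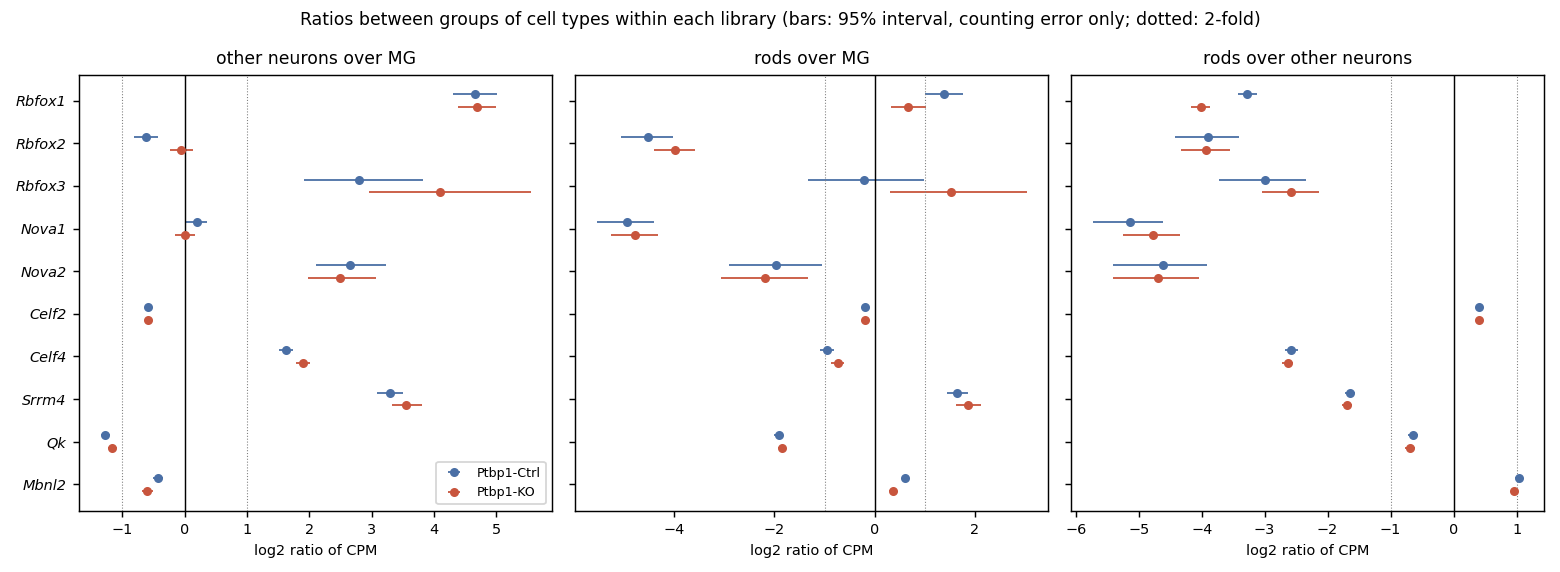
Log2 ratio of CPM (horizontal axis) for each member (vertical axis) in 3 comparisons within each library: other neurons over MG, rods over MG, and rods over other neurons. Points are 1 library each, bars are 95% counting intervals and dotted lines mark 2-fold. In the right panel 7 members lie left of the 2-fold line in both libraries, with Mbnl2 at 1.04 and 0.96 at the opposite end.

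Most members were lower in rods than in other neurons, and fewer differed between rods and MG. Against other neurons, 7 of 10 members were lower in rods, where 23.4% of 15744 genes were. Nova1 was lowest at a log2 ratio of -5.14 (-5.73 to -4.61) and -4.78 (-5.25 to -4.34), with Nova2 at -4.61 and -4.69 and Rbfox2 at -3.90 and -3.93. Rbfox1 stood at -3.28 and -4.02, Rbfox3 at -3.0 and -2.58, Celf4 at -2.58 and -2.63, and Srrm4 at -1.64 and -1.69. With equal weight for the 5 types Srrm4 read -0.76 and -1.05, which left 6 members. The 7 members include every Rbfox and Nova gene of the list. The sum covers unlike types, however. Against cones alone, Rbfox1, Rbfox2, Rbfox3 and Nova2 in rods did not differ beyond counting error in either library. Celf4 was higher in rods than in cones (0.45 and 0.81), and Nova1 and Srrm4 were lower. Rbfox1 and Rbfox2 levels were not lower in rods than in BC either, while those of Rbfox3, Nova1, Nova2, Celf4 and Srrm4 were. None was at least 2-fold higher in both libraries, where 9.42% of all genes were, but Mbnl2 reached 1.04 (0.98 to 1.10) and 0.96 (0.90 to 1.02), on either side of that line. Celf2 stood at 0.39 and 0.41 and Qk at -0.65 and -0.70. The member median was -2.79 and -2.61, against -0.08 and -0.05 over all genes.

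Against MG, 4 members were lower in rods, where 23.3% of 14684 genes were. They were Nova1 at -4.95 and -4.78, Rbfox2 at -4.53 and -3.98, Nova2 at -1.96 and -2.19, and Qk at -1.92 and -1.85. Srrm4 was the 1 member higher, at 1.65 (1.43 to 1.86) and 1.87 (1.63 to 2.12), where 16.4% of all genes were. Rbfox1 passed 2-fold in Ptbp1-Ctrl (1.38) and not in Ptbp1-KO (0.67), Celf4 stood at -0.95 and -0.74, Mbnl2 at 0.61 and 0.37, and Celf2 at -0.19 and -0.18. Rbfox3 read -0.21 and 1.52 from 11 and 6 UMIs in MG, which gave no common direction. After subtraction of an estimated background of other cells, Nova2 read -0.07 and -1.53 and was no longer counted, and Rbfox1, Rbfox3 and Srrm4 came to 0 in MG of both libraries. The member median was -0.58 and -0.46, against 0.03 and 0.08 over all genes.

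A list of 24 other splicing regulators, of which 21 had enough UMIs, was counted by the same rule. In other neurons against MG, 7 were higher and 2 lower, where 18.0% and 14.2% of all genes were. In rods against MG, 4 were higher and 4 lower, where 16.4% and 23.3% of all genes were. In rods against other neurons, 3 were higher and 8 lower, where 9.42% and 23.4% of all genes were. Elavl3, an RNA-binding protein of neurons, had the highest ratio of other neurons to MG by the mean of the libraries (4.18 and 5.14), with Rbm24 at 4.61 and 4.05 (from 3 and 5 UMIs in MG) and Celf3 at 4.15 and 3.84. Esrp1, known from epithelia (-5.50 and -4.36, from 7 and 11 UMIs in other neurons), and Msi1 (-2.33 and -2.59) had the lowest. In rods over other neurons, Rbm20 (2.21 and 2.41), Mbnl1 (1.32 and 1.37) and Msi2 (1.16 and 1.12) were highest and Celf3 (-5.27 and -5.10) lowest, also by the mean of the libraries. Next lowest were Rbm24 and Elavl3, with means of -5.02 and -4.08. Mbnl1, the paralog of Mbnl2, was thus higher in rods than in other neurons, where Mbnl2 itself did not pass 2-fold in both libraries. Celf3, the relative of Celf4, was lower, but the other Celf genes of this list ran from a mean of -4.00 to 0.29.

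**Figure D3:**
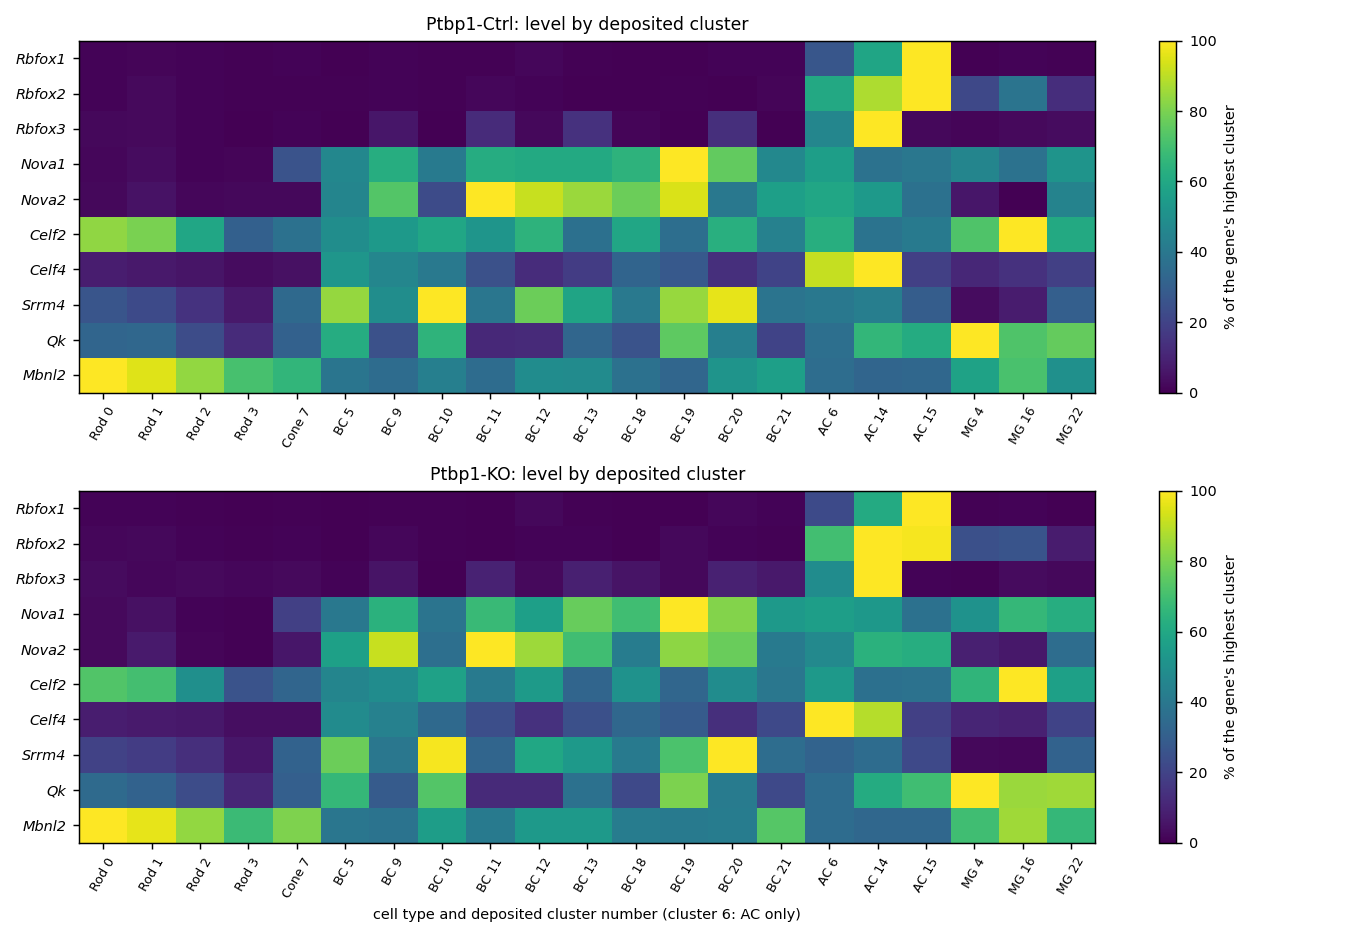
Level of each member (rows) in the 21 deposited clusters (columns, named by cell type and cluster number) as percent of the highest cluster of that gene in the same library, with Ptbp1-Ctrl above and Ptbp1-KO below. Cluster 6 is shown for its AC only. Rbfox1 peaks in AC cluster 15 and Rbfox3 in AC cluster 14, Qk and Srrm4 vary between BC clusters, and Celf2 and Mbnl2 decline from rod cluster 0 to rod cluster 3.

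Within AC, the Rbfox genes divided between 3 deposited clusters. These clusters were made from the same counts, so the values are a description. Cluster 6 held the GABA synthesis genes Gad1 (479 and 536 CPM) and Gad2, while clusters 14 and 15 held the glycine transporter Slc6a9 (1028 and 1289 CPM in 14, 864 and 918 CPM in 15) and Gad1 at or below 2.30 CPM. Rbfox1 stood at 953 and 766 CPM in cluster 6, at 2081 CPM in cluster 14 of both libraries, and at 3551 and 3404 CPM in cluster 15. Rbfox3 stood at 50.5 and 64.0 CPM in cluster 6, at 110.4 and 131 CPM in cluster 14, and at 2.30 and 1.03 CPM in cluster 15, where 1 UMI was found in each library. The cluster with the most Rbfox1 thus held almost no Rbfox3. Celf4 was low there too, at 207 and 252 CPM against 1094 and 1176 CPM in cluster 14, whereas Rbfox2 (288 and 272 CPM) and Qk (322 and 343 CPM) were close to their levels in cluster 14. Cluster 15 also held Tfap2b at 677 and 799 CPM, against 16.4 and 14.5 CPM in cluster 14.

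The 10 BC clusters differed in Qk. Clusters 5, 10 and 19 held 325 to 398 CPM over both libraries, and clusters 11 and 12 held 59.0 to 61.9 CPM, a 6.61-fold and 6.75-fold range from the highest to the lowest cluster. Clusters 5 and 10 held Prkca, a marker of rod bipolar cells, at 6644 CPM or more, and cluster 19 held 81.7 and 65.0 CPM of it with Vsx1 at 602 and 630.3 CPM, so high Qk was not limited to Prkca-rich cells. Srrm4 was 608 and 673 CPM in cluster 10 and 585 and 683 CPM in cluster 20, against 239 and 222 CPM in cluster 11. Celf4 was highest in cluster 5 (575 and 641 CPM) and low in clusters 12 (140.3 and 189.9 CPM) and 20 (148 and 178 CPM). Nova1 peaked in cluster 19 (151 and 155 CPM), and Rbfox1, low in BC as a whole, stood at 59.7 and 72.0 CPM in cluster 12 against 4.97 and 5.04 CPM in cluster 18, a wider range of 12.01-fold and 14.3-fold. Over the 10 clusters, which share their 2 libraries, Pearson's r between the libraries was 0.99 for Qk, 0.98 for Celf4, 0.97 for Srrm4, 0.95 for Rbfox1 and 0.94 for Nova1, and -0.21 for Rbfox2, which had 22 and 23 UMIs in all BC.

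The 4 rod clusters differed in most members, with cluster 0 above cluster 3. Celf2 stood at 1455 and 1445 CPM in cluster 0 and at 532 and 504 CPM in cluster 3, and Srrm4 at 161 and 136 CPM against 41.4 and 41.5 CPM. Mbnl2 differed less, at 553 and 478 CPM in cluster 0 and 393 and 327 CPM in cluster 3. CPM sum to a fixed total, so these are shares of the UMIs of a cluster and not amounts per cell. Cluster 3 held 1835 of the 10058 rods of Ptbp1-Ctrl and 972 of the 9301 rods of Ptbp1-KO, so a rod sum weights the clusters differently in each library.

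Between the genotypes the members were close, as measured in 5 cell types with at least 1000000 UMIs per library. A pair of a member and a cell type was counted where the libraries differed by at least 1.5-fold with at least 20 UMIs over both. That left 10 members each in rods, BC and AC, 9 in MG and 7 in cones. Rbfox3 in rods was the 1 pair higher in Ptbp1-KO, where 14.2% of all genes were in rods, 8.01% in cones, 6.22% in BC, 6.72% in AC and 7.16% in MG. No pair was lower, where the shares of all genes were 2.13%, 5.51%, 3.64%, 5.12% and 4.92%. By type, the median log2 ratio of the members ran from 0.00 in cones to 0.07 in rods and BC, where all genes stood at 0.00, 0.09 and 0.02. Rods held 21 and 49 UMIs of Rbfox3, or 1.61 and 3.38 CPM (log2 ratio 1.07, 0.31 to 1.88), while the summed level of AC markers in rods was 59.7 and 75.5 CPM. Its level in rods was 2.67% and 5.20% of that in AC. The part of RNA from AC in this pair was not tested.

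**Figure D4:**
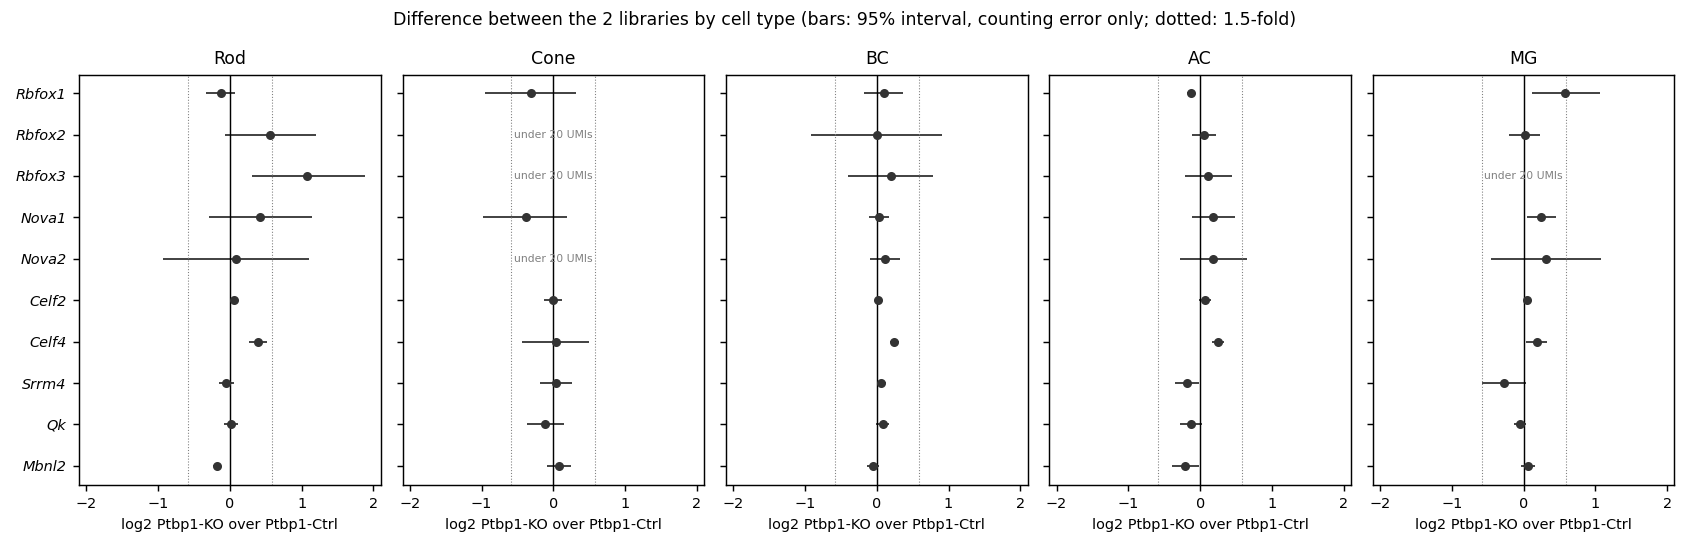
Log2 ratio of Ptbp1-KO over Ptbp1-Ctrl (horizontal axis) for each member (vertical axis) in rods, cones, BC, AC and MG. Each point compares 1 library with 1 library, bars are 95% counting intervals, dotted lines mark 1.5-fold, and pairs with fewer than 20 UMIs are marked. Celf4 lies right of 0 in rods, BC, AC and MG, and the remaining points cluster around 0 except low-count pairs such as Rbfox3 in rods.

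Celf4 was the member with the most uniform difference between the libraries. It stood at 67.5 and 88.8 CPM in rods, a log2 ratio of 0.40 (0.27 to 0.52), at 378 and 448 CPM in BC (0.25, 0.18 to 0.31), at 855 and 1018 CPM in AC (0.25, 0.17 to 0.34), and at 130.2 and 148 CPM in MG (0.18, 0.04 to 0.33). In cones the ratio was 0.04 (-0.44 to 0.50). Ptbp1-KO was higher in 20 of the 21 clusters, all 4 rod clusters and all 10 BC clusters among them. The clusters share their libraries, however, and are not separate observations. With Ptbp1-Ctrl given first, AC held 23.2% and 36.7% of all Celf4 UMIs. How much RNA of AC added to the Celf4 difference in the other types was not tested. In MG the ratio was -0.02 after subtraction of an estimated background of other cells, so the direction in MG depends on that step.

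Other differences were small or went both ways. Mbnl2 in rods was lower in Ptbp1-KO, at 488 and 430.1 CPM (log2 ratio -0.18, -0.23 to -0.13), and was lower in each of the 4 rod clusters. It was also lower in AC (-0.21, -0.39 to -0.02), together with Srrm4 (-0.18, -0.35 to -0.01) and Rbfox1 (-0.12, -0.18 to -0.07). In MG, Rbfox1 was higher in Ptbp1-KO, at 11.7 and 17.5 CPM from 69 and 89 UMIs (0.58, 0.11 to 1.06), as was Nova1 (0.24, 0.04 to 0.44). The Rbfox1 ratio in MG was 0.93 in the main MG cluster alone, which is past 1.5-fold, but Ptbp1-KO was lower in the other 2 MG clusters, at 29.7 and 27.8 CPM in cluster 16 and 22.9 and 10.7 CPM in cluster 22, from 4 to 12 UMIs each. Counting intervals above 0 held 3 members in rods, 1 in BC, 1 in AC, 3 in MG and 0 in cones, where 22.1%, 11.7%, 6.89%, 11.8% and 6.66% of all genes were above 0. Intervals below 0 held 1 member in rods and 3 in AC, against 9.82% and 6.81% of all genes, and 0 in BC, cones and MG, against 9.92%, 5.97% and 11.5%.

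Sums over a type can differ from its clusters. Celf2 in rods was 1115 and 1159 CPM in the sum, a log2 ratio of 0.06 (0.02 to 0.09), but was lower in Ptbp1-KO in all 4 rod clusters, at 1455 and 1445 CPM, 1395 and 1390.1 CPM, 1032 and 987 CPM, and 532 and 504 CPM. The direction of the sum was that of the shares of cells, since fewer Ptbp1-KO rods lay in cluster 3. Likewise the Rbfox1 level of other neurons was 294 and 450 CPM, although AC held 1916 and 1758 CPM, as AC supplied 1956373 of the UMIs summed in Ptbp1-Ctrl and 3857457 in Ptbp1-KO.

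The genes most like each member were sought over the 21 clusters in both libraries, 42 points that share their libraries and depths, by Pearson's r of log2(CPM + 10) among 4387 genes with a mean of at least 50 CPM. Rbfox1 was most like Necab1 and Atp1b1 (0.94 for both), Rbfox2 like Cdk14 (0.96) and Ptprf (0.94), and Rbfox3 like Nhlh2 (0.89) and Astn2 (0.87). Nova1 was most like Ube2e2 (0.98) and Nrxn3 (0.96), and Nova2 like Rit2 (0.96) and Shank1 (0.95). Celf2 was nearest to Dennd1a (0.85) and Rb1 (0.82), Celf4 to Rian (0.90) and Impact (0.88), and Srrm4 to Edil3 (0.92) and Sh3gl2 (0.90). Qk was nearest to Ank3 (0.85) and Fam184b (0.75), the weakest second partner of the 10, and Mbnl2 to Scarb1 and Epb41l5 (0.91 for both). Among the members themselves, Rbfox1 and Rbfox2 (0.81) and Nova1 and Nova2 (0.78) varied together, and Mbnl2 varied opposite to Nova2 (-0.83), Celf4 (-0.80) and Nova1 (-0.70).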

How the data were processed

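Retinas of 1 Ptbp1-Ctrl and 1 Ptbp1-KO mouse were dissociated with papain and profiled by 10x Genomics 3' single-cell sequencing. The authors aligned reads to mm10 with Cell Ranger 7.0.1, filtered and clustered cells in Seurat 4 and named cell types from markers. The deposited table holds raw UMI counts, and the sum of counts equalled the deposited total in all 30943 cells. The gene annotation and the use of intronic reads are not given in the sources used here. The other deposited per-cell values, of which 2 columns were not used, comprise counts of genes and a mitochondrial percent.

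UMI counts were summed by sample and cell type and scaled to CPM, with exact Poisson intervals for levels, exact conditional binomial intervals for ratios and Clopper-Pearson intervals for shares, all at 95% and for counting error only. Cells of 1 mouse are not replicates, so the Wilcoxon test of the study was not run. Genes needed 20 UMIs in each comparison, and a call meant 2-fold between types or 1.5-fold between genotypes. The genes named are the members, Ptbp1, the other regulators with the 3 highest or lowest ratios, and the 2 genes most like each member. Gad1, Gad2, Slc6a9, Tfap2b, Prkca and Vsx1, from the marker lists, and Srrm4os were added after their values were seen. The members and lists were chosen with earlier results of these data known. The ratio scripts were tested on simulated data. Alternatives were TMM factors (edgeR 4.0.16), thinning to 1000 UMIs, background subtraction, other cell sets, minimums and folds. The doublet caller in scanpy 1.11.5 called 0 cells, so its scores served only to rank cells, and no doublets were removed. Python 3.11.15, numpy 2.4.6, scipy 1.17.1 and R 4.3.3 were used.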

Additional observations from a re-analysis of the deposited data

Results flagged for a closer look

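Rbfox1 moved in opposite directions in 2 cell types, with counting intervals that lie apart from 0 on either side. The log2 ratio of Ptbp1-KO over Ptbp1-Ctrl was 0.58 in MG and -0.12 in AC. The difference between the types was not tested, since there is 1 library per genotype. Leaving out the cells with the highest doublet scores gave 0.91 in MG, and leaving out those with the highest share of rod markers gave 0.38. Of the 3 MG clusters, 1 was higher in Ptbp1-KO and 2 were lower. With an estimated background of other cells subtracted, Rbfox1 came to 0 in MG of both libraries, so the ratio could not be formed. AC markers summed to 559 and 646 CPM in MG, but stood there at a median of 1.47% and 1.59% of their own AC level. The Rbfox1 level in MG was 0.610% and 0.996% of that in AC. The part of RNA from AC in the MG value was not tested.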

How the results depend on the processing

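Counts of members depended on the threshold and on how RNA of other cells was treated. The share over all genes was computed for the main thresholds only, so the counts given here have no such share beside them. With 4-fold as the threshold, the members lower in other neurons than in MG numbered 0, those higher in rods than in MG 0 and those lower in rods than in MG 2. At 4-fold, Celf4 was also no longer counted as higher in other neurons than in MG, nor Srrm4 as lower in rods than in other neurons. Equal weight for the types also gave 0 members lower in other neurons than in MG, with Qk at -1.10 and -0.67, 6 higher, with Rbfox2 added, and 6 lower in rods than in other neurons, without Srrm4. With background subtracted, 3 members were counted as higher in rods than in MG, namely Rbfox1, Rbfox3 and Srrm4. Their level in MG came to 0 in both libraries, so any rod level above 0 was counted and no ratio could be formed. Nova2 read -0.07 and -1.53. Mbnl2 became 1 member higher in rods than in other neurons with background subtracted, and again when cells with the top doublet scores or the top marker shares of another type were left out. Pairs higher in Ptbp1-KO numbered 3 with thinning, 4 with background subtracted, 3 without the cells of highest doublet score, 3 with the main MG cluster alone, 0 at a minimum of 100 UMIs and 4 at 1 UMI. Pairs lower in Ptbp1-KO numbered 1 with background subtracted (Nova1 in cones, -1.82) and 1 at a minimum of 1 UMI (Rbfox3 in MG, -0.66). The ratio of Celf4 in MG reversed to -0.0178 with background subtracted. The minimums change by construction which pairs are admitted, and for the other settings the cause was not tested. Over all alternatives, 399 of 408 ratios between cell types and 223 of 248 between genotypes kept their sign, with Rbfox2 in other neurons over MG among the exceptions. Ratios that could not be formed are not in these totals. Size was less stable. Ratios between cell types left their counting interval in 39 of 48 with background subtracted, 28 of 40 with equal weight and 19 of 60 with thinning. Between genotypes, 7 of 40 did so with background subtracted and 12 of 48 with thinning. In every other setting at most 8 moved. TMM factors shifted the median of all genes by less than 0.1 on the log2 scale in each comparison.

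The share of UMIs estimated as background from rod markers came to 122% and 148% in RGC, so RGC were left out there, and to 50.1% and 51.2% in cones. No paired analysis was possible because each genotype has 1 library, and for the same reason leaving out a library was not run. Depth limits Rbfox3 in rods (21 and 49 UMIs) and MG, and the number of cells limits all values of RGC and HC. All RGC values are limited as well by the rod markers found there, at a median of 60.7% and 75.8% of the rod level.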
